A study of Mus musculus with 8 samples.

Results

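The proteins of the cytosolic ribosome were examined in the striatum of male mice labelled Brd2+/- and wildtype. The members were the array probes whose gene name in the scanner files was Rpl or Rps followed by a number (with at most 1 of the letters a, l, x or y), or Rplp0, Rplp1, Rplp2, Rpsa or Fau. Names marked as pseudogenes, the Rps6k kinases and other names that only begin alike were left out by the same rule. Probes with a member's name stayed in wherever the files place them. It took 187 of the 39429 probes on the array, which read 82 of the 30175 names there: 46 of the large subunit, 33 of the small subunit and 3 of the stalk. A single probe read 23 of these genes, 27 genes had 2 probes, 22 had 3, 8 had 4, 1 had 5 and 1 had 7.

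The cytosolic ribosome is built from ribosomal RNA and a fixed set of proteins, each present once in a ribosome apart from the stalk proteins. The small subunit reads the messenger RNA, the large subunit joins amino acids, and the stalk recruits the translation factors. Ribosomal protein mRNAs are among the most abundant in nearly every cell, their translation is set by growth signalling through the pyrimidine tract at their start, and the genome holds many processed pseudogenes of them.

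Total RNA came from the striatum of 8 adult males, 4 labelled wildtype and 4 labelled Brd2+/-, all on a C57Bl/6J background after backcrossing. Brd2 encodes a bromodomain protein that reads acetylated histones. The Brd2+/- mice carried a gene-trap vector in 1 copy of the gene, read by PCR, and were bred from heterozygous parents. The labels name no promoter or Cre that would limit the trap to the striatum. Each of 4 two-colour Agilent arrays, all on 1 slide, held 2 mice of the same genotype, with replicates 1 and 2 on an array and replicates 3 and 4 on the other. Replicates 1 and 3 carried Cy3 and replicates 2 and 4 carried Cy5. The free-text description of all 8 samples names the left atrium of the heart, whereas the tissue field and the dissection protocol name the striatum. On the arrays all 12 striatal projection neuron markers measured were well above background in all 8 samples, whereas 2 of 10 atrial markers were and the atrial genes Actc1 and Myl7 were above background in none.

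Values are log2 intensities of each sample's own channel after background correction and normalization. The median spot of a sample lay between 3.72 and 10.5 times its background, and 41.6% (heterozygous replicate 3) to 63.1% of all probes were well above background. Samples on the same array correlated at 0.986 to 0.989 over all tested probes and samples on different arrays at 0.925 to 0.959. The probes for Brd2 itself were not lower in the samples labelled heterozygous: A_55_P1958678 had a mean of 11.46 ± 0.65 (SD, n = 4) in wildtype and 11.75 ± 0.06 (SD, n = 4) in heterozygous mice, and A_55_P1953545 had 7.13 ± 0.26 (SD, n = 4) and 8.01 ± 0.18 (SD, n = 4). The labels do not place the trap relative to these probes, and genotypes are given throughout as labelled, without a check from Brd2 itself. The summed level of 8 oligodendrocyte markers was 16.58 to 16.94 in wildtype and 17.18 to 17.67 in heterozygous samples, without overlap. That of the striatal projection neuron markers was 17.23 to 18.43 and 18.41 to 18.91, and that of 6 cortical excitatory neuron markers 11.48 to 14.15 and 10.29 to 11.71. The summed markers of astrocytes, microglia, endothelium, choroid plexus and blood overlapped between the genotypes. The part of these marker levels in any difference below was not tested, and in tissue RNA a change in the number of cells of a type cannot be told apart from a change in RNA per cell.

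Ribosomal protein probes were among the brightest on the array. Of the 187 probes, 162 lay in the highest of 10 equal brightness classes of all probes. A total of 179 were well above background in at least 4 samples, 173 in all 8 and 3 in none. None was saturated. The bright spots also carried most of the scanner software's non-uniformity flags, which mark spots whose pixels vary more than its noise model allows. In the highest class 52.1% of all probes had such a flag in at least 1 sample. Between 20 and 40 of the 187 probes were flagged in a sample, that is 10.7% to 21.4%, against 2.15% to 4.13% of all probes. Leaving out flagged spots removed 95 of the 179 probes (53.1%), against 3889 of 22288 probes over the whole array (17.4%). The test therefore covered 84 probes of 55 genes among 18399 probes in all, and values with flagged spots kept are given beside it for 179 probes of 79 genes.

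**Figure D1:**
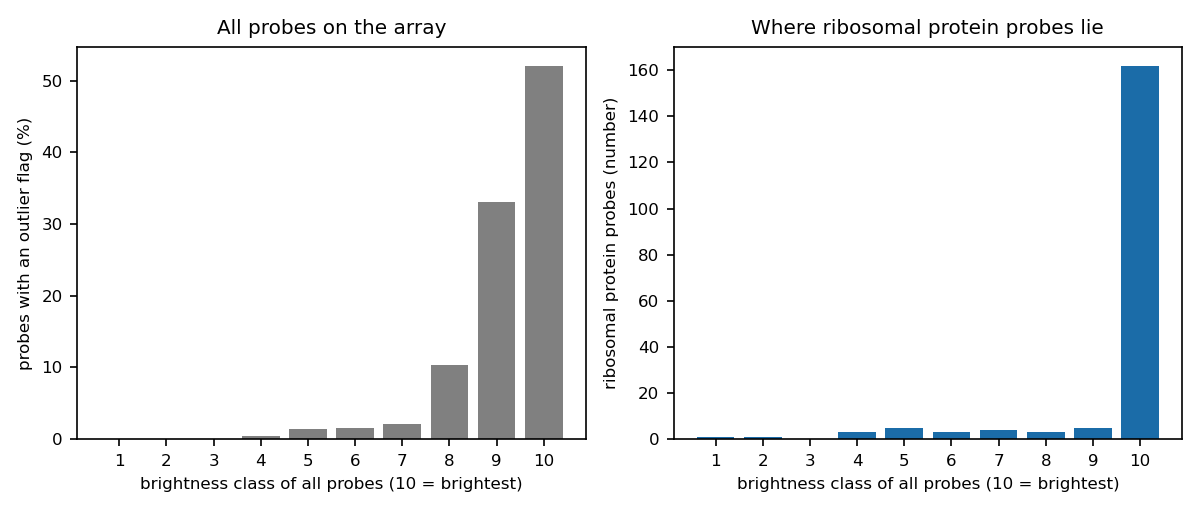
Left, percent of all probes with an outlier flag in at least 1 sample, by class of mean brightness (10 equal classes). Right, number of ribosomal protein probes in the same classes. The highest class holds 162 of the 187 ribosomal protein probes, and 52.1% of all probes there carry a flag.

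The 27 genes without a tested probe included Rpl5, Rpl10, Rpl10a, Rpl10l, Rpl13, Rpl19, Rpl23a, Rpl26, Rpl27a, Rpl32, Rpl35, Rpl38, Rpl39, Rpl39l, Rpl3l, Rpl41 and Rplp2 of the large subunit and Rps3a, Rps12, Rps15, Rps18, Rps20, Rps26, Rps27a, Rps27l and Rps28 of the small subunit. Of these, 24 had a value once flagged spots were kept. Rpl10l, Rpl39l and Rpl3l, copies known from testis, testis and striated muscle in that order, had no probe well above background in 4 or more samples. Rpl10l was above background in 0 samples with either of its probes, Rpl39l in 1 and Rpl3l in 3.

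The probes are 60 bases long, and several read the same gene. Of 172 pairs of probes of the same gene, 25 overlapped by at least 30 bases with at most 20% mismatched letters. Of these, 3 were identical over the overlap and 22, in 17 genes, differed at 1 to 11 letters there. The pairs below are shown because their probes gave differing genotype values; letters in capitals differ between the probes of a pair where they overlap, and the last 3 pairs do not overlap. The sequences are those of the scanner files, printed 5′ to 3′, with positions on mm9 as the files give them.

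Rplp0 A_55_P1970866: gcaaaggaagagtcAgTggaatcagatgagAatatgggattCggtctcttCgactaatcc
Rplp0 A_55_P2135098: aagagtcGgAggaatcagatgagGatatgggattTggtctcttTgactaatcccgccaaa
Rpl7a A_55_P2001347: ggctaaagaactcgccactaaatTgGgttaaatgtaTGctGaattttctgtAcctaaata
Rpl7a A_55_P2037922: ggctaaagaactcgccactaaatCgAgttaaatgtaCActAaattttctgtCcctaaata
Rpl11 A_55_P1967076: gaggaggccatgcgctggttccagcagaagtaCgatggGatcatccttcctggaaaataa
Rpl11 A_55_P2010341: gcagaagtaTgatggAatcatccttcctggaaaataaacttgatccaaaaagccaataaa
Rps3a A_51_P292357: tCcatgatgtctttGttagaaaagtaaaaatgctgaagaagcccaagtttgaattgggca
Rps3a A_55_P2056190: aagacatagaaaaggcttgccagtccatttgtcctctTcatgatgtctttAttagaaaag
Rpl27 A_55_P1956948: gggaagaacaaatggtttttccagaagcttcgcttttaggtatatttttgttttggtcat
Rpl27 A_55_P2048684: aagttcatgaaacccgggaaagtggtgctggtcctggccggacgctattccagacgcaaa
Rpl30 A_55_P1952475: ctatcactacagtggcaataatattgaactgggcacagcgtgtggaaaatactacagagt
Rpl30 A_55_P2104941: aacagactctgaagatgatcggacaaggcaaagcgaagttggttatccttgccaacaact
Rps2 A_55_P2048454: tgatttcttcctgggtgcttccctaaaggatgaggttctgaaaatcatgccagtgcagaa
Rps2 A_55_P2070347: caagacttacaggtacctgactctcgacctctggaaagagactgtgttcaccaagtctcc

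The Rplp0 pair lies at chr5:116013397-116013456 and chr5:116013404-116013463 on the plus strand, overlaps by 53 bases and has 5 mismatches. Both Rpl7a probes are placed at chr2:26768759-26768818 on the plus strand and differ at 6 letters. The Rpl11 probes, at chr4:135605902-135606224 and chr4:135605879-135606201 on the minus strand, overlap by 37 bases with 2 mismatches, and the spans given exceed the probe length. The Rps3a probes, at chr3:85942027-85942458 and chr3:85942435-85942494 on the minus strand, share 24 bases with 2 mismatches. The Rpl27 pair lies at chr11:101306763-101306822 and chr11:101304045-101304104 on the plus strand, and the Rpl30 pair at chr15:34371013-34371072 and chr15:34372403-34372462 on the minus strand. The Rps2 probes are placed at chr17:24857583-24857642 and chr17:42864841-42864900 on the plus strand. Rps2, Rpl13, Rpl36 and Rps4x were the 4 genes, of 59 with several probes, whose probes the files place over 1 Mb apart or on different chromosomes. An annotation of this build was not used here, so exons and UTRs are not given.

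The comparison of genotypes asks whether these mRNAs differ where 1 copy of Brd2 carries the trap. No ribosomal protein probe passed an adjusted p of 0.05 in limma, and 0 of all 18399 probes did (0%); the lowest adjusted p was 0.437 for both. At an unadjusted p under 0.05, 14 of the 84 ribosomal protein probes stood out, 7 with higher and 7 with lower values in heterozygous mice. Over all probes 3.88% were higher and 4.08% lower at this threshold. The 14 probes read 13 genes, their differences were 0.60 to 1.37 log2 units in size, and their adjusted p-values lay between 0.437 and 0.627. The share of 16.7% stood beside 7.96% of all probes, and 11 of the 68 probes with a mean level of 12 or more were among them, against 8.33% of all probes that bright. The 14 of 84 became 9 of 86 when heterozygous replicate 1 was left out, 9 of 88 when heterozygous replicate 3 was, and 21 of 105 when the array with wildtype replicates 1 and 2 was. The shares of all probes with these left out are not given here. In a simulation of this comparison the test called 22% of true 2-fold changes and 72% of true 4-fold changes among 18399 probes.

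Direction was mixed. Of the 84 differences 47 were below 0 and 37 above, with a median of −0.08 against −0.02 over all probes. The median was 0.11 when the array with wildtype replicates 1 and 2 was left out and 0.06 when that with heterozygous replicates 3 and 4 was. The median size of a difference was 0.36 for ribosomal protein probes and 0.26 for all probes, and 23 of 84 (27.4%) differed by 1.5-fold or more, against 16.2%. The genotypes did not overlap for 22 probes, 10 higher and 12 lower in heterozygous mice, beside 8.01% and 8.91% of all probes. With the scanner software's processed signals the median of all probes lay at −0.53, and the ribosomal protein median lay at −0.57, or −0.05 relative to it. With those signals 7 of the 84 differences were above 0 and 77 below, and at an unadjusted p under 0.05 there were 0 higher and 14 lower ribosomal protein probes, beside 9 higher and 2185 lower of all probes.

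**Figure D2:**
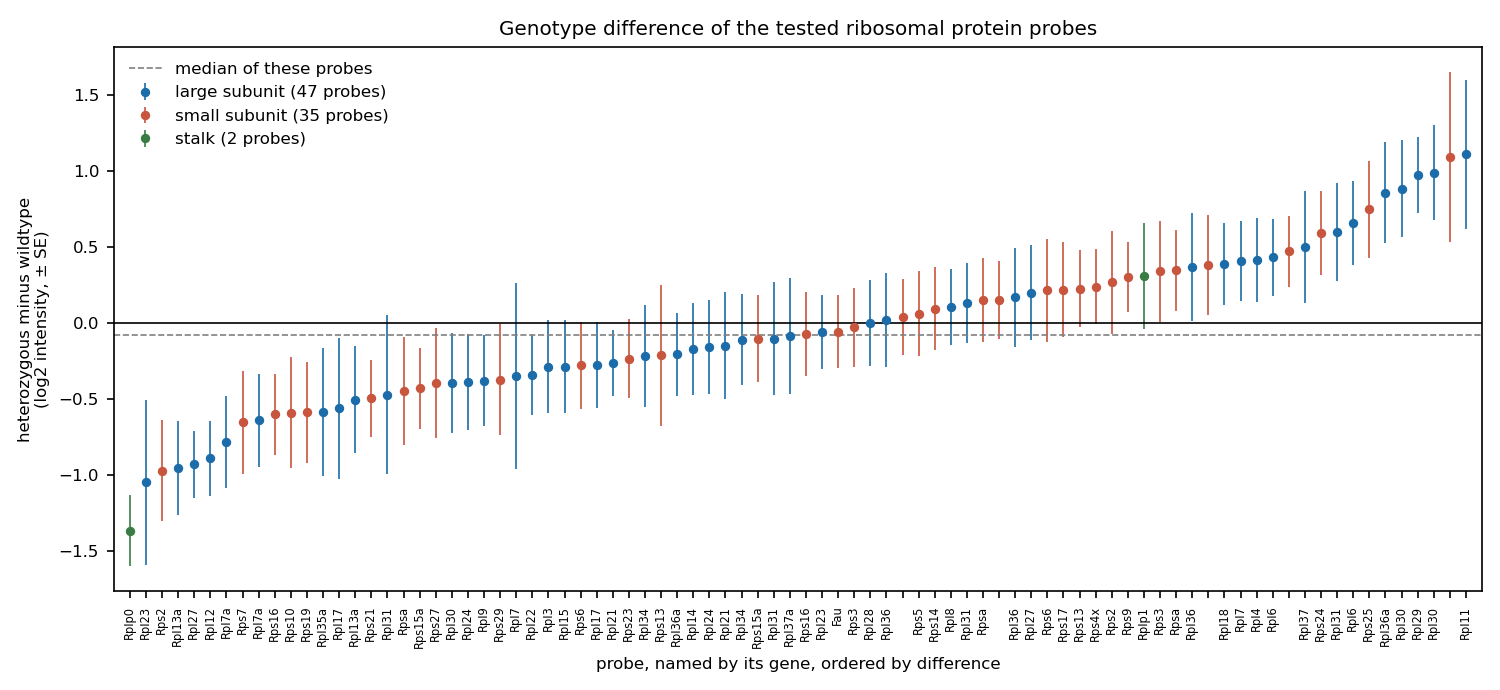
Heterozygous minus wildtype difference (log2 intensity, ± SE) of each of the 84 tested ribosomal protein probes, in order of size, coloured by subunit; points without a name are genes not reported singly. Differences run from −1.37 (Rplp0) to 1.11 (Rpl11) on both sides of 0, with a median of −0.08 (dashed).

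The stalk held the largest difference of all tested ribosomal protein probes. Rplp0, the stalk's anchor on the large subunit, was read by A_66_P105288 at 13.90, 13.95, 14.25 and 14.20 in wildtype replicates 1 to 4 and at 12.78, 12.67, 12.76 and 12.62 in heterozygous replicates 1 to 4. All 4 heterozygous samples lay below all 4 wildtype samples, and both arrays of a genotype gave like values. The difference was −1.37 (SE 0.23, 95% interval −1.90 to −0.84, limma adjusted p = 0.437). The other Rplp0 probes, shown above, had flagged spots in 2 and 4 samples. With these kept, A_55_P2135098 differed by −0.755 (SE 0.26), with all heterozygous below all wildtype samples, whereas A_55_P1970866 differed by −0.17 (SE 0.25) and its groups overlapped. All 3 Rplp0 probes were below 0, by unequal amounts. Rplp1, a partner of Rplp0 in the stalk, differed by 0.31 (SE 0.35) and overlapped between groups. Rplp2, the other acidic stalk protein, had a value only with flagged spots kept, −0.08 (SE 0.35).

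Of the 47 tested large-subunit probes, read from 29 genes, 29 were below 0 and 18 above. At an unadjusted p under 0.05 there were 4 lower and 6 higher, beside 4.08% lower and 3.88% higher of all probes. Rpl27, a large-subunit protein, had the next lowest p: A_55_P1956948 read 14.97, 14.85, 15.05 and 14.93 in wildtype and 14.03, 13.99, 14.14 and 13.92 in heterozygous mice. The groups were apart by more than either spread, with a difference of −0.93 (SE 0.22, 95% interval −1.43 to −0.43). Rpl12, at the base of the stalk, stood at 15.52, 15.64, 15.61 and 15.47 in wildtype and 14.76, 14.55, 14.77 and 14.59 in heterozygous mice, again without overlap. Its difference was −0.89 (SE 0.25). Its other probe, A_55_P1952690, had 3 flagged samples and differed by 0.13 with these kept. Rpl13a, which also takes part in translational silencing in immune cells, read 12.32, 12.78, 12.37 and 12.33 in wildtype and 11.51, 11.42, 11.48 and 11.56 in heterozygous mice with A_55_P2052613. All heterozygous samples were lower, by −0.96 (SE 0.31), and the other tested probe differed by −0.51 (SE 0.35). The remaining Rpl13a probe, A_55_P2058953, had 2 flagged samples and differed by 0.52 (SE 0.43) with these kept, with overlap.

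Other large-subunit probes pointed upwards. Rpl29 (A_55_P2061045) read 13.71, 13.70, 13.76 and 13.405 in wildtype and 14.77, 14.65, 14.62 and 14.42 in heterozygous mice. No sample overlapped, and the difference was 0.97 (SE 0.25, 95% interval 0.40 to 1.54); with the processed signals it was −0.078, above the −0.53 of all probes. A second Rpl29 probe with 2 flagged samples gave 0.69 (SE 0.29) with these kept. Rpl6 had 2 tested probes, both above 0, at 0.66 (SE 0.28) and 0.43 (SE 0.26), and all heterozygous samples of the first, at 14.63, 14.32, 14.94 and 14.92, lay above the wildtype samples at 13.93, 13.94, 14.26 and 14.04. With the processed signals these Rpl6 probes differed by −0.16 (A_55_P2052634) and −0.50 (A_55_P1990859), again above the −0.53 of all probes. Rpl7a ran the other way with both of its tested probes, at −0.79 (SE 0.30) and −0.64 (SE 0.31). For the first, A_55_P2024080, wildtype samples read 14.59, 14.58, 14.66 and 14.61, while the heterozygous arrays split into 13.44 and 13.31 for replicates 1 and 2 and 14.34 and 14.20 for replicates 3 and 4.

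In the small subunit, 35 tested probes of 24 genes divided into 17 below 0 and 18 above. At an unadjusted p under 0.05 there were 2 lower and 1 higher, beside 4.08% lower and 3.88% higher of all probes. Rps2, which lies near the entry of the messenger RNA, read 15.57, 15.60, 15.51 and 15.07 in wildtype and 14.31, 13.93, 14.91 and 14.70 in heterozygous mice with A_55_P2070347. The groups did not overlap and differed by −0.97 (SE 0.33). Rps16 (A_55_P1963061) read 15.77, 15.84, 15.84 and 15.66 in wildtype and 15.04, 14.83, 15.51 and 15.31 in heterozygous mice, a difference of −0.60 (SE 0.27) without overlap. Its other tested probe differed by −0.07 (SE 0.28). The higher probe was that of Rps25 (A_52_P436318), a protein used by some viral RNAs to start translation. It was well above background in 5 samples only and read 6.57, 6.77, 7.20 and 6.80 in wildtype and 7.54, 7.63, 7.57 and 7.58 in heterozygous mice. With every heterozygous value above every wildtype value, this dim probe may have passed the filter of 4 samples through its higher group. Its place among the higher probes is therefore not read as support for a difference. The difference was 0.75 (SE 0.32), while a second Rps25 probe with 2 flagged samples gave −0.03 (SE 0.35) with these kept.

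Fau, whose product is cut from a ubiquitin-like fusion, differed by −0.06 (SE 0.24, 95% interval −0.61 to 0.49). Rpsa, also known as a laminin receptor, gave −0.45 (SE 0.36), 0.34 (SE 0.27) and 0.15 (SE 0.28) with 3 probes. Rps4x differed by 0.24 (SE 0.25) with the probe tested, A_55_P1960764, which the files place on chromosome 3. A_55_P2081829, placed on chromosome X, had 2 flagged samples and differed by −0.68 (SE 0.41) with these kept, with overlap. Rps6, the substrate of the S6 kinases, gave −0.28 (SE 0.29) and 0.21 (SE 0.34), the latter (A_55_P2008567) at −0.11 with the processed signals.

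Other small-subunit probes were less far apart. Rps21 read 13.85, 13.83, 14.04 and 13.75 in wildtype and 13.54, 13.16, 13.47 and 13.32 in heterozygous mice, a difference of −0.50 (SE 0.25) without overlap. Rps24 (A_55_P1955243) differed by 0.59 (SE 0.28) with overlap. The 8 genes with the highest wildtype means on a tested probe, were Rps29, Rps14, Fau, Rps10, Rps27, Rpl9, Rpl31 and Rps16. On these probes the differences ran from −0.59 (Rps10, SE 0.36) to 0.09 (Rps14, SE 0.27), and in none were the groups apart. Choosing probes by a high wildtype mean itself favours differences below 0. Other probes of some of these genes, with flagged spots kept, did set the groups apart. The heterozygous samples were lower for Rps16, as above, and Rps10 (A_66_P140711, −0.86, SE 0.26). They were higher for Rpl9 (A_55_P1998825, 0.67, SE 0.36) and Rpl31 (A_51_P452820, 0.60, SE 0.33). Among the lowest wildtype means were those of single probes of Rps25, Rpsa, Rpl21 and Rps15a, of which Rpl21 differed by −0.27 (SE 0.22) without overlap and Rps15a by −0.43 (SE 0.26) with it.

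Rps27a, made as a fusion with ubiquitin, had 2 probes with flagged spots and 1 that was well above background in 0 samples. With flagged spots kept, A_55_P1976108 read all 4 heterozygous samples above all wildtype samples (0.47, SE 0.24) and A_55_P2025174 read all 4 below (−1.08, SE 0.41).

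**Figure D3:**
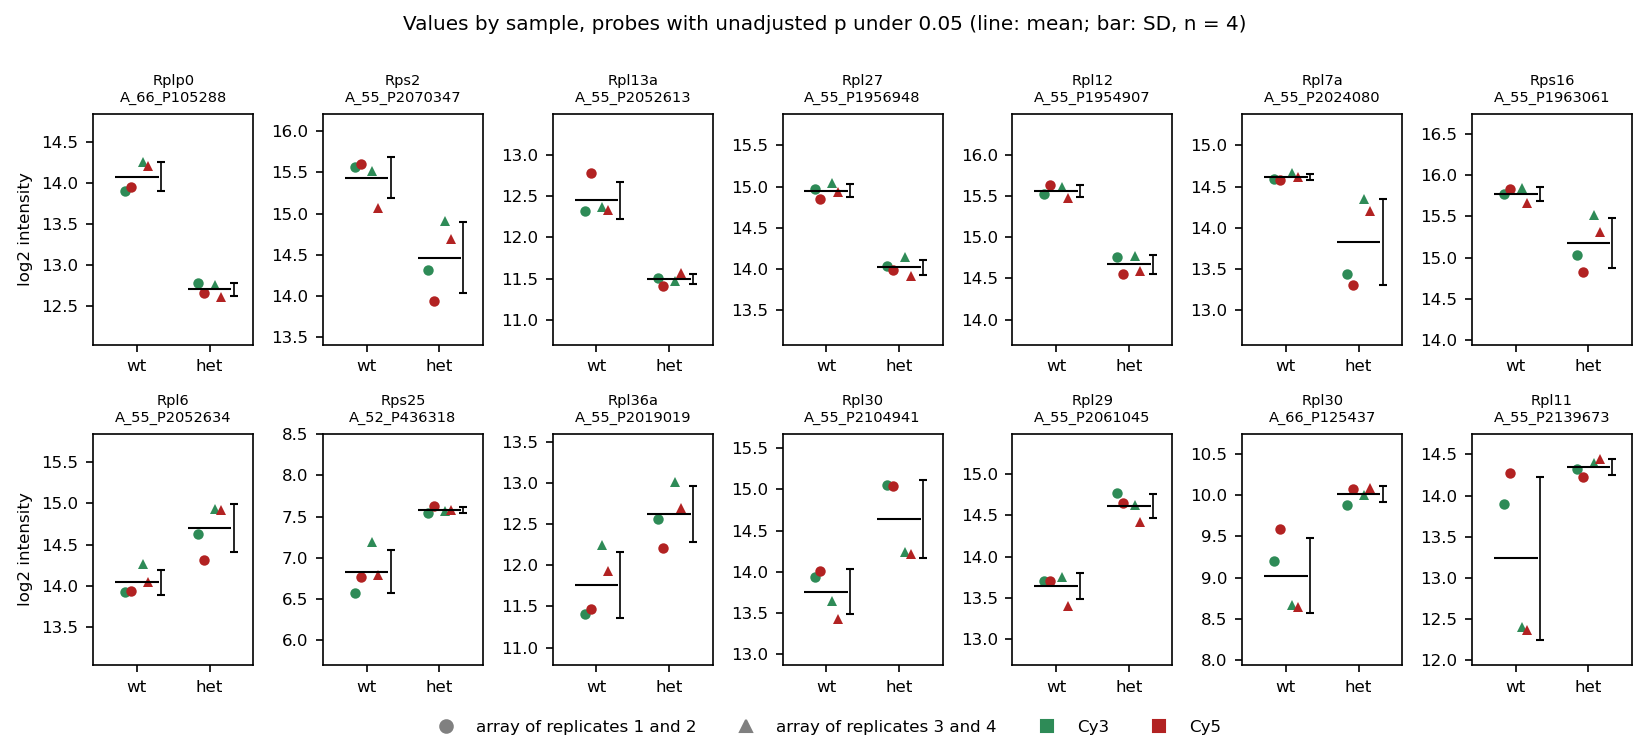
Log2 intensity in each of 8 samples for the 14 ribosomal protein probes with an unadjusted p under 0.05; circles and triangles are the 2 arrays of a genotype, green is Cy3 and red Cy5, the line is the mean and the bar the SD (n = 4). In 12 of the 14 the genotypes do not overlap; in Rpl7a, Rpl30 and Rpl11 the arrays of 1 genotype stand apart.

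Probes of the same gene often gave different values. Among the 23 genes with 2 or more tested probes there were 29 pairs of the brightest probe with another, and 16 pairs (55.2%) had the same sign. Over all genes 52.7% of 3345 pairs did. Between the probes of a pair the genotype difference varied by a median of 0.45 log2 units, against 0.38 over all genes. A limma fit on the difference between the probes of a pair called no pair at an adjusted p of 0.05 (0% of all pairs; lowest 0.385). Between the probes of 13 pairs (44.8%) the genotype difference varied by 0.5 or more, against 37.7% of all pairs. At an unadjusted p under 0.05 the fit held 6 of the 29 pairs, beside 8.91% of all pairs. The 6 pairs were 2 of Rpl30 and 1 each of Rpl36a, Rps2, Rpl27 and Rpsa, and in each the probes had opposite signs.

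Rpl30, which in yeast binds its own transcript, had the most divergent pair of tested probes. A_55_P2104941 read 13.94, 14.01, 13.64 and 13.43 in wildtype and 15.05, 15.04, 14.24 and 14.22 in heterozygous mice, and A_66_P125437 read 9.20, 9.59, 8.67 and 8.65 and 9.88, 10.08, 10.01 and 10.09. Both placed all heterozygous samples above all wildtype samples, by 0.88 (SE 0.32) and 0.99 (SE 0.31). With the processed signals A_66_P125437 differed by −0.35, above the −0.53 of all probes. A_55_P1952475 read 15.24, 15.36, 15.69 and 15.46 in wildtype and 15.54, 15.41, 14.68 and 14.53 in heterozygous mice. Here the groups overlapped, the difference was −0.39 (SE 0.33), and the heterozygous array of replicates 3 and 4 was 0.87 below the other. The difference between A_55_P1952475 and A_55_P2104941 was −1.28 (SE 0.36, limma adjusted p = 0.385).

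For Rpl27, A_55_P1956948 differed by −0.93, as above. A_55_P2048684 read 12.85, 12.85, 13.04 and 12.86 in wildtype and 13.40, 12.82, 13.11 and 13.05 in heterozygous mice, a difference of 0.20 (SE 0.31) with overlap. Rps2 was split in the same manner, with 0.27 (SE 0.34) for A_55_P2048454 beside −0.97 for A_55_P2070347, the probe that the files place away from the first. Rpl36a gave 0.86 (SE 0.33) with A_55_P2019019 and −0.21 (SE 0.27) with A_55_P2102816. The untested Rpl36a probe A_55_P1956707 shares 55 bases with A_55_P2019019, with 2 mismatches. It differed by −0.14 (SE 0.28) with flagged spots kept, and its groups overlapped. Rpl31 was read by 4 tested probes, at −0.47 (SE 0.52), −0.10 (SE 0.37), 0.13 (SE 0.27) and 0.60 (SE 0.32).

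**Figure D4:**
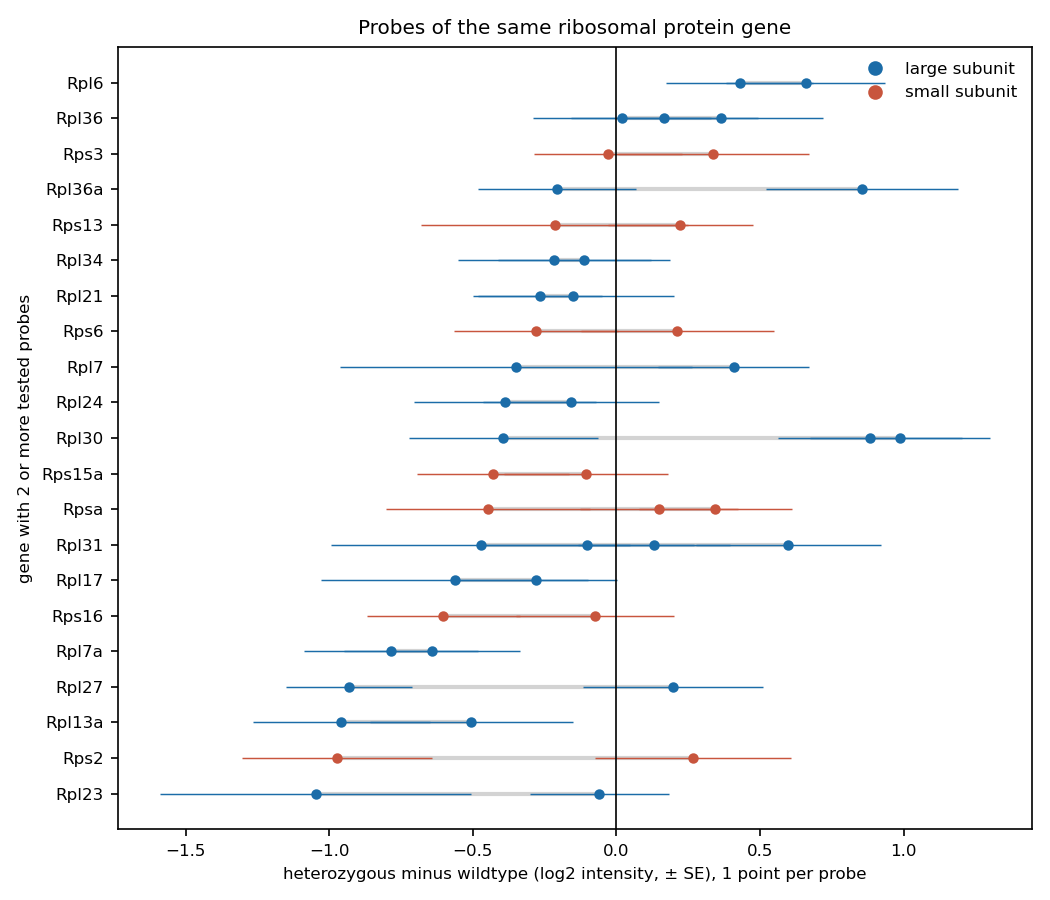
Heterozygous minus wildtype difference (log2 intensity, ± SE) of every tested probe of ribosomal protein genes with 2 or more, apart from genes not reported here; a grey bar joins the probes of a gene. Rps2, Rpl27, Rpl30 and Rpl36a have probes on both sides of 0, while both probes of Rpl13a and of Rpl7a lie below and both of Rpl6 above.

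Overlapping probes could be compared with flagged spots kept. Of the 22 pairs that overlap with mismatches 13 (59.1%) had the same sign, of the 3 identical over the overlap 2 did, and of 138 pairs without such overlap 65 (47.1%) did. The Rpl7a probes that are placed at the same 60 bases and differ at 6 letters read −0.36 (SE 0.29) and 0.49 (SE 0.32). Both pairs of groups overlapped. For Rpl11, which in excess binds and inhibits the p53 ligase Mdm2, A_55_P1967076 read 15.78, 15.93, 16.04 and 15.89 in wildtype and 15.00, 14.84, 15.42 and 15.30 in heterozygous mice, a difference of −0.77 (SE 0.27) without overlap. A_55_P2010341, which shares 37 bases with it, differed by 0.32 (SE 0.51). The widest gap of all pairs was in Rps3a, a small-subunit protein near the exit of the messenger RNA. A_51_P292357 read 14.00, 14.05, 14.07 and 13.88 in wildtype and 12.39, 12.52, 12.85 and 12.80 in heterozygous mice, and A_55_P2056190 read 13.60, 13.50, 14.17 and 13.87 and 15.05, 14.80, 15.32 and 15.31. The groups did not overlap with either probe, but the differences were −1.36 (SE 0.26) and 1.33 (SE 0.29), and the remaining probe, A_55_P2136385, gave −0.89 (SE 0.29) without overlap. Each of these Rps3a probes had 2 flagged samples.

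With flagged spots kept, 36 of 179 ribosomal protein probes (20.1%) had an unadjusted p under 0.05, 16 higher and 20 lower, against 8.79% of 22288 probes. None passed the adjusted threshold, and the lowest adjusted p among them was 0.227; over all the alternatives it ranged from 0.0206 to 0.826. The genotypes did not overlap for 54 probes (30.2%), 26 higher and 28 lower, against 18.2% of the 22288 probes. The 36 probes read 29 genes, and 3 of these, among them Rps3a and Rps24, had probes in both directions. Rpl10a, Rps24, Rps27a and Rps3a each had 1 probe with all heterozygous samples higher and another with all lower. How many genes over the whole array had probes in both directions was not counted, so neither pattern is read as particular to these genes. Among the 24 genes that only this setting measured, 21 probes were below 0 and 23 above. In Rpl28, A_55_P1985359 had 6 flagged samples and read 12.50, 12.77, 12.37 and 12.30 in wildtype and 14.34, 14.39, 13.69 and 13.72 in heterozygous mice, a difference of 1.55 (SE 0.30) without overlap. The other Rpl28 probe, A_55_P2044109, had no flag and differed by −0.0036 (SE 0.28), with overlap.

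The genotype difference was set beside the gaps between the 2 arrays of each genotype. The larger of 2 gaps, each between means of 2 samples, tends to exceed a difference between means of 4 samples. The share is therefore read only against that of all probes. The larger of the gaps between arrays of a genotype exceeded the genotype difference for 56 of the 84 probes (66.7%), against 77.4% of all probes, and it reached 1 log2 unit for 10 probes (11.9%), against 15.8%. Of the 14 probes with an unadjusted p under 0.05, 12 differed more between genotypes than between arrays. Choosing probes by this p favours that, because the fit weighs the genotype difference against the spread between arrays. The widest gap was that of Rpl23, a large-subunit protein at the interface of the subunits. Its probe A_55_P2029344 read 13.68 and 13.83 in heterozygous replicates 1 and 2, 15.82 and 15.90 in replicates 3 and 4, and 15.68 to 16.10 in wildtype mice, so that 1 heterozygous array stood 2.10 below the other and the latter lay within the wildtype range. The difference of −1.05 (SE 0.54) was 0.0024 when the array with heterozygous replicates 1 and 2 was left out. Rpl11 showed the reverse, with wildtype arrays 1.70 apart. Rpl11 (A_55_P2139673) read 13.90 and 14.27 in wildtype replicates 1 and 2, 12.41 and 12.37 in replicates 3 and 4, and 14.22 to 14.44 in heterozygous mice.

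**Figure D5:**
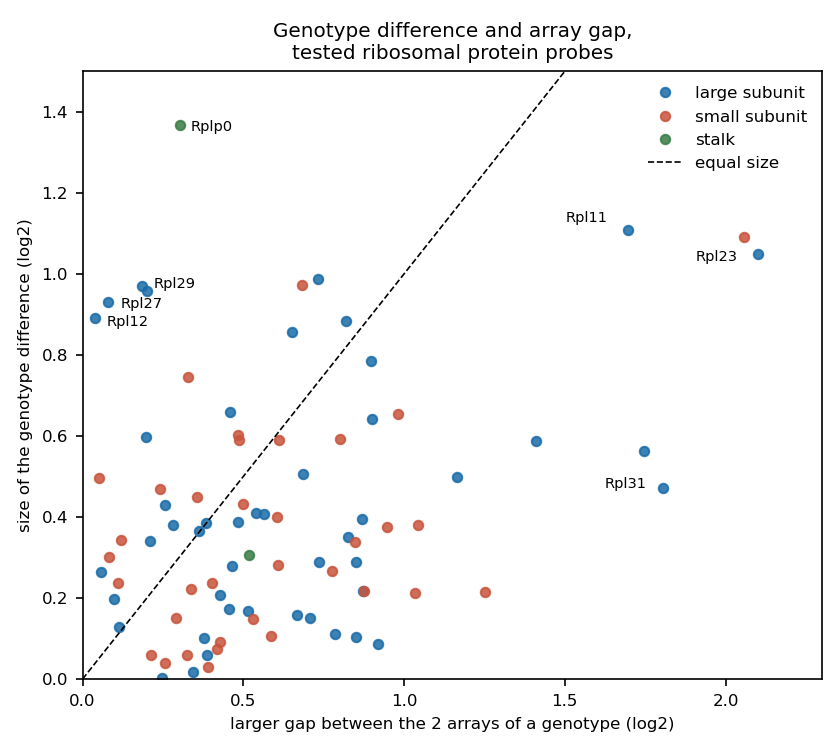
Size of the genotype difference against the larger gap between the 2 arrays of a genotype (both log2), for the 84 tested ribosomal protein probes, coloured by subunit; the dashed line marks equal size. Rplp0, Rpl27, Rpl29 and Rpl12 lie well above the line, and Rpl23, Rpl11 and Rpl31 far to its right.

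Copies outside the name rule were read in the same fit where no spot was flagged. Rpl36al, a copy of Rpl36a, read 12.45, 12.51, 12.12 and 12.18 in wildtype and 11.39, 11.04, 11.81 and 11.89 in heterozygous mice. Its groups did not overlap, with a difference of −0.78 (SE 0.32, limma adjusted p = 0.607). Rpl7l1 differed by 0.39 (SE 0.40) and Rps4y2 by −0.56 (SE 0.28). Rpl22l1, a copy of Rpl22, had flagged spots in wildtype replicates 1 and 2; its other wildtype values were 14.22 and 14.02, and the heterozygous values 12.96, 12.76, 12.97 and 12.53. Rps27l, a target of p53, is a member by the name rule but was not tested. It read 10.69, 10.53, 11.14 and 11.30 in wildtype and 10.86, 10.93 and 10.55 in heterozygous replicates 1 to 3, with the fourth flagged. With that spot kept Rps27l differed by −0.25 (SE 0.33), and its groups overlapped.

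Other genes of the pathway were read by their brightest tested probe, among 12792 genes of which 3.97% were lower and 3.72% higher at an unadjusted p under 0.05. A list of translation factors, other mRNAs of the pyrimidine-tract class and Eef1e1 had 19 genes on the array. Of these, 11 were tested and 0 passed the adjusted threshold. At the unadjusted one 2 were higher and 0 lower, and the median difference was 0.37, against −0.02 over the 12792 genes. Eif3f, a subunit of an initiation factor, read 11.36, 11.76, 11.09 and 11.06 in wildtype and 12.95, 13.11, 12.89 and 13.22 in heterozygous mice, without overlap (1.73, SE 0.29, limma adjusted p = 0.437). Eef1e1, of the tRNA synthetase complex, differed by 1.05 (SE 0.30), and Eif4b and Npm1 by −0.23 (SE 0.31) and −0.19 (SE 0.26).

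Of 39 ribosome biogenesis genes 32 were tested, 0 passed, and 2 were lower and 4 higher at the unadjusted threshold, with a median difference of 0.06. Polr1e, a subunit of RNA polymerase I, read 8.86, 8.91, 9.01 and 9.30 in wildtype and 7.79, 7.69, 7.69 and 7.85 in heterozygous mice, a difference of −1.27 (SE 0.26) without overlap. Xpo1, which exports the subunits from the nucleus, differed by −0.57 (SE 0.25), Nop10, a part of pseudouridylation particles, by 0.95 (SE 0.28) and Mdn1, which remodels the large subunit, by 0.70 (SE 0.22). Of 16 genes of growth signalling to ribosomes 14 were tested and 0 passed, with 2 higher and 0 lower at the unadjusted threshold and a median of 0.10. Those were the S6 kinases Rps6kb1 at 0.61 (SE 0.25) and Rps6kb2 at 1.06 (SE 0.46), while Eif4ebp2, an inhibitor of initiation, and Pdcd4 stood at −0.48 (SE 0.26) and −0.54 (SE 0.33). The lowest adjusted p in these 3 lists was 0.437.

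The members also shared features that the name rule did not use. Of 61 ribosomal protein genes with a start region in the RefSeq promoter table of GRCm38, 30 (49.2%) held a run of at least 8 letters C or T on the gene's strand within 20 bases of the start, against 18.4% of 27025 genes. The GC content of the 187 probes was 26.7% to 55.0%, with a median of 45.0% against 41.7% for all probes. Across the 84 tested probes GC content and the genotype difference correlated at 0.08, and mean wildtype level and difference at −0.21. The wildtype mean is itself subtracted in the difference, which pushes the latter correlation below 0, so no relation to level is read from it. A stretch of at least 25 bases was shared with a probe of another name on the array by 68 of the 187 probes, among them those of Rpl27 (A_55_P1956948), Rpl29 (A_55_P2061045) and Rplp0 shown above, so that for these probes signal from such copies cannot be told apart from that of the named gene.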

How the data were processed

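The deposited scanner files hold the fluorescence intensity of each spot, which the authors read with Agilent Feature Extraction 11.0.1.1, per the file headers. The authors' deposited value table holds a ratio: tested on the files, each value was the median signal minus the median background, divided by that column's median. It served as an alternative, with 8 to 42 empty cells in Cy3 and 10844 to 14151 in Cy5 columns.

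From the intensities, mean signals were background-corrected with normexp (offset 50) on the median background, normalized by loess within and Aquantile between arrays, and put on the log2 scale with limma 3.58.1 in R 4.3.3. Controls and flagged outlier spots were dropped, and replicate spots averaged per probe. A probe was tested if well above background in at least 4 samples and measured in all 8. The fit had dye as a covariate and array as a random block (correlation 0.810), with Benjamini-Hochberg adjustment over all 18399 probes at 0.05. Each array held 1 genotype, so genotypes were compared only between arrays. The 2 arrays of each group limit the precision, and the part of array effects in a difference cannot be told apart from genotype. Nothing in the labels beyond the replicate numbers and the word biological says how the samples were taken. The p-values measure the spread between samples and between the 2 arrays of a group, with samples of the same array taken as correlated. On simulated data the test made 13 false calls among 18199 unchanged probes.

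The genes named were the 10 probes in each direction with the lowest p, genes with probes of opposite sign of which 1 reached 0.5, the 8 highest and 5 lowest wildtype levels, fixed roles and copies, and 2 genes per direction from each other list. Genes named only with flagged spots kept were chosen after their values were seen. The members and lists were chosen with earlier results of these data known. Of 187 probe accessions 172 matched the RefSeq gene table. Alternatives covered the signal, normalization, filters, flags, blocks and left-out samples and arrays; centring on all probes was added after seeing the data. Some genes that the naming rule selects are not reported here.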

Additional observations from a re-analysis of the deposited data

Results flagged for a closer look

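Among 104 groups of 4 samples examined for the named probes, 5 held a sample apart from the other 3 relative to the range of its group. The cutoff marks about 1 in 20 groups of 4 independent samples. These samples share arrays in pairs, so that rate does not apply to them. In wildtype mice, replicate 3 read 13.04 for Rpl27 (A_55_P2048684), next to 12.86 for the nearest sample. Wildtype replicate 2 read 12.78 for Rpl13a (A_55_P2052613), with the nearest at 12.37. Wildtype replicate 4 was the lowest for Rpl29 (A_55_P2061045) at 13.405, the nearest being 13.70, and for Rps2 (A_55_P2070347) at 15.07, the nearest being 15.51. In heterozygous mice, replicate 3 read 8.75 for Rps6kb1 (A_51_P175205), next to 8.71. In Rpl13a, Rpl29, Rps2 and Rps6kb1 the genotypes did not overlap with this sample included.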

How the results depend on the processing

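No ribosomal protein probe was called under any alternative except the fit with no array block, which treats samples of the same array as independent; it called 5 (Rplp0, Rpl27, Rpl12, Rpl13a and Rpl29) and 529 of all probes. Over all probes the deposited table called 1. Leaving out samples or arrays called 0 to 19 of all probes: 19 without the array of wildtype replicates 1 and 2, 13 without wildtype 3 and 4, 5 without heterozygous 3 and 4, and 1 without wildtype replicate 4. The 14 ribosomal protein probes at an unadjusted p under 0.05 became 9 with 75th percentile scaling, 30 of 183 with the deposited table, 36 of 179 with flagged spots kept, 28 with no array block, 9 with the mean of both channels, 9 of 55 with 1 probe per gene and 8 of 55 with the mean over probes, and 9 to 21 with samples or arrays left out. The share of all probes at this threshold was 7.96% in the main fit and 8.79% with flagged spots kept. For the other alternatives in that list it is not given here, so their counts alone do not show a change particular to the ribosomal proteins. The median of −0.08 was −0.57 with the processed signals and lay between −0.12 and 0.11 with samples or arrays left out. The same-sign share of 55.2% was 86.2% with the processed signals, or 51.7% relative to the median of all probes. Same-numbered samples deviated together at 0.039, 0.255, 0.164 and 0.125, so the numbers were not taken to pair the mice. With a replicate block in place of the dye 0 of all probes were called. Of the 84 ribosomal protein probes 17 had an unadjusted p under 0.05 with that block, and the share of all probes is not given here.

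With the processed signals, whose all-probe median was −0.53, the ribosomal protein differences above 0 went from 37 to 7 of 84, and among the probes chosen by the naming rule these turned below 0: Rpl31 A_51_P452820 (−0.53), Rpl31 A_55_P2038299 (−0.62), Rpsa A_52_P372165 (−0.39), Rps24 (−0.44), Rps2 A_55_P2048454 (−0.21), Rpl27 A_55_P2048684 (−0.50), Rpl6 (−0.16), Rpl29 (−0.078), Rplp1 (−0.22), Rps14 (−0.37) and Rpl30 A_66_P125437 (−0.35). Relative to that median, Rpl31 A_51_P452820 (−0.0086) and A_55_P2038299 (−0.10), Fau (0.15) and Rpl36a A_55_P2102816 (0.19) had the other sign. With samples or arrays left out, differences crossed 0 for Fau (−0.22 to 0.10), Rpl23 A_55_P2029344 (−2.10 to 0.0024), Rpl30 A_55_P1952475 (−0.83 to 0.040), Rpl31 A_55_P2001155 (−0.53 to 0.32) and A_55_P2180477 (−1.38 to 0.43), Rpl36a A_55_P2102816 (−0.42 to 0.0060), Rps14 (−0.12 to 0.31), Rps16 A_55_P1963062 (−0.28 to 0.13), Rps2 A_55_P2048454 (−0.12 to 0.65), Rps29 (−0.85 to 0.10) and Rpsa A_52_P372165 (−0.12 to 0.21). Beyond what a changed number of probes, samples or blocks does by construction, the cause was not tested. Signal over background, lowest in heterozygous replicate 4 at 3.72, limits the dim probes.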
